A study of Mus musculus with 24 samples.

Results

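The 4 Janus kinases Jak1, Jak2, Jak3 and Tyk2 and 5 of the STAT transcription factors, Stat3, Stat4, Stat5a, Stat5b and Stat6, were followed across 4 activated cell types of the mouse immune system, taken from mice without the microRNA miR-155 (knockout, KO) and from wild-type (WT) mice. These 9 genes were taken by their symbols from the 20673 genes counted in each of 24 RNA-seq libraries, and all 9 passed the filter on low counts in every cell type. All mice were on the C57BL/6J background. B cells were isolated from spleen and received LPS at 25 ug/ml with IL-4 at 6.5 ng/ml. Dendritic cells were picked from spleen by CD11c, in mice that bore B16 melanoma cells secreting Flt3 ligand, and received LPS at 100 ng/ml with GM-CSF at 20 ng/ml. Macrophages were drawn to the peritoneum by thioglycollate and received LPS at 100 ng/ml. CD4 T cells negative for CD25 and CD44 came from lymph nodes and spleen and were activated with beads bearing antibodies to CD3 and CD28. Every cell type had 3 KO and 3 WT libraries, which the study's design calls sequencing replicates, and no separate animals are named. The p-values therefore speak of library-to-library spread, and that spread may be technical. KO and WT cells of a type had the same activation and no resting cells were used here, so each comparison is between genotypes in activated cells.

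Most cytokine receptors have no kinase of their own and hold a pair of Janus kinases at their inner side. Binding of the cytokine brings the kinases together, they phosphorylate the receptor and a STAT factor docked on it, and the STAT pairs up, enters the nucleus and binds DNA. Among the induced genes are those of the SOCS family, whose proteins switch the kinases off again. Jak1 serves interferon, gp130 and common gamma chain receptors, Jak2 serves receptors for GM-CSF, IL-12 and IFN-gamma, Jak3 binds the common gamma chain alone, and Tyk2 serves IL-12 and type I interferon receptors. Stat3 acts below IL-6 and IL-10, Stat4 below IL-12, Stat5a and Stat5b below IL-2 and GM-CSF, and Stat6 below IL-4 and IL-13.

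The sequence that KO cells lack is shown first, with its seed (bases 2 to 8) in capitals. It is the mature mmu-miR-155-5p of RefSeq, on the plus strand at chr16:84714143-84714165 of GRCm38.p6.
mmu-miR-155-5p: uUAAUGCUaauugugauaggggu
A microRNA lowers messenger RNAs whose 3′ UTR pairs with the seed. None of the 9 genes held a seed match, not even the 6-letter GCATTA, in its longest 3′ UTR in GENCODE M21. Over 19461 genes with a 3′ UTR, 12.8% held a match of 7 or 8 letters (GCATTA with the next base before it, a final A, or both) and 20% held any match. No match says only that these letters are not in the annotated UTR. The mm9 build of the count files is older than this GRCm38 annotation, so sequences were joined to the counts by symbol alone.

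The pathway around the 9 genes did hold matches. Among 100 genes of receptors, inhibitors and STAT targets, 18 had a match of 7 or 8 letters and 9 had only the 6-letter match. Shown here are some of the matches of 7 or 8 letters in inhibitors and receptors whose values are given further on. They are read 5′ to 3′ from GENCODE M21 transcripts on GRCm38, with the letters that pair with the seed region in capitals. Such matches in Ifngr1, Ifngr2, Il6ra, Il18r1, Lepr and Ptpn2, and another in Il15ra, are not printed. In KO dendritic cells Ifngr1 (log2 difference -0.45) and Il18r1 fell, and Ifngr2 (0.31), Il6ra (1.14) and Ptpn2 (0.57) rose. Lepr was not tested in dendritic cells. The Sh2b3 site lies at chr5:121816959-121816986, the Pias1 site at chr9:62879422-62879449, the Il7r site at chr15:9506554-9506581 and the Socs1 site at chr16:10784197-10784224, all on the minus strand, and the Il15ra site at chr2:11733957-11733984 on the plus strand.
Sh2b3: ccagtgccttatGCATTAAcaaaaagga
Pias1: actttatctcctGCATTAAaagaaaaag
Il7r: ttgggtgccttAGCATTAAaattctgtt
Il15ra: tcagtacaaaaAGCATTAAaattatcaa
Socs1: cgctgtgccgcAGCATTAAgtgggggcg

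The promoters were searched for the core letters that STAT pairs bind, TTCNNNGAA, which reads the same on both strands, in windows from 250 bases before to 50 bases after each annotated start (RefSeq, GRCm38.p6). None of the 9 genes held it, against 9.55% of 27025 genes, and 13 of the 75 pathway genes with a window did. The inhibitor genes Cish and Socs3, textbook STAT targets, are shown for comparison, with the matches in capitals. Cish held a pair of them on the plus strand, at chr9:107296649-107296677 and chr9:107296660-107296688, and Socs3 held 1 on the minus strand, at chr11:117969502-117969530.
Cish, first match: ccgcccagttTTCCTGGAAagttcttgga
Cish, second match: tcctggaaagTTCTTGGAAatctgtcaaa
Socs3: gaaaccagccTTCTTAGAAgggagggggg
A letter match is a description of the window and not a site shown to be bound, and its absence says nothing about binding elsewhere.

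Stat3, Stat5a and Stat5b share chromosome 11 and the other members lie apart. On GRCm38 Stat5a and Stat5b stand 8626 bases apart, and the annotated ends of Stat3 and Stat5a overlap by 72 bases on opposite strands. Stat5a and Stat5b are close copies. Of the 50-base windows of their coding sequence, 26.0% of those of Stat5a and 26.3% of those of Stat5b were found in the other gene. Counts of these 2 genes are uncertain to that extent, since how shared reads were counted is not given in the sources used here. Stat4 shared 38.3% of its windows with an annotated readthrough transcript, and the other 6 genes shared none.

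Gene counts ran from 7428821 to 14219823 per library. Levels are given as gene counts brought to a common library total, with TMM scaling over all 24 libraries (CPM), and comparisons between genes use CPM per kilobase of coding sequence. The summed markers of each labelled cell type were highest in its own libraries. The summed conventional dendritic cell markers stood at 14538 to 15304 CPM in KO and 11120 to 11909 CPM in WT dendritic cells and reached at most 434 CPM elsewhere. In dendritic cells the sum was mostly Fscn1, Ccr7 and Flt3. Itgax, which encodes the CD11c used to pick these cells, was low in them (29.0 CPM in KO and 31.3 CPM in WT, against 394 CPM in KO and 262 CPM in WT macrophages), and Xcr1 was near 0 (0.723 CPM in KO and 1.68 CPM in WT). The macrophage markers stood at 33720.5 to 37221 CPM in KO and 29278 to 41154 CPM in WT macrophages, against at most 304 CPM elsewhere. B cell markers reached 41.8 CPM at most outside B cells, and CD4 T cell markers 34.5 CPM at most outside CD4 T cells. The melanoma genes Mlana, Tyr and Dct had 0 counts in all dendritic cell libraries, and Pmel averaged 1.003 CPM in KO and 1.77 CPM in WT, where the group means of the other cell types were 0.765 to 1.68 CPM. Mir155 is not among the counted symbols, so the KO label was not checked on its own gene. In such bulk libraries a lower share of cells with a transcript and less transcript per cell cannot be told apart.

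Each of the 9 genes differed in WT level between the 4 cell types, in a single edgeR fit of all libraries, where 98.1% of tested genes did so. Over the 6 pairs of cell types, 49 of 54 tests were past an adjusted p of 0.05, with 80.2% of all genes called for B cells against dendritic cells, 82.4% for B cells against macrophages, 56.2% for B cells against CD4 T cells, 80.4% for dendritic cells against macrophages, 81.6% for dendritic cells against CD4 T cells and 83.8% for macrophages against CD4 T cells. Dendritic cells had the highest levels of 6 of the 9 genes, Jak2, Tyk2, Stat3, Stat4, Stat5a and Stat5b, in both genotypes. Macrophages had the highest Jak1 and Stat6, and CD4 T cells the highest Jak3.

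**Figure D1:**
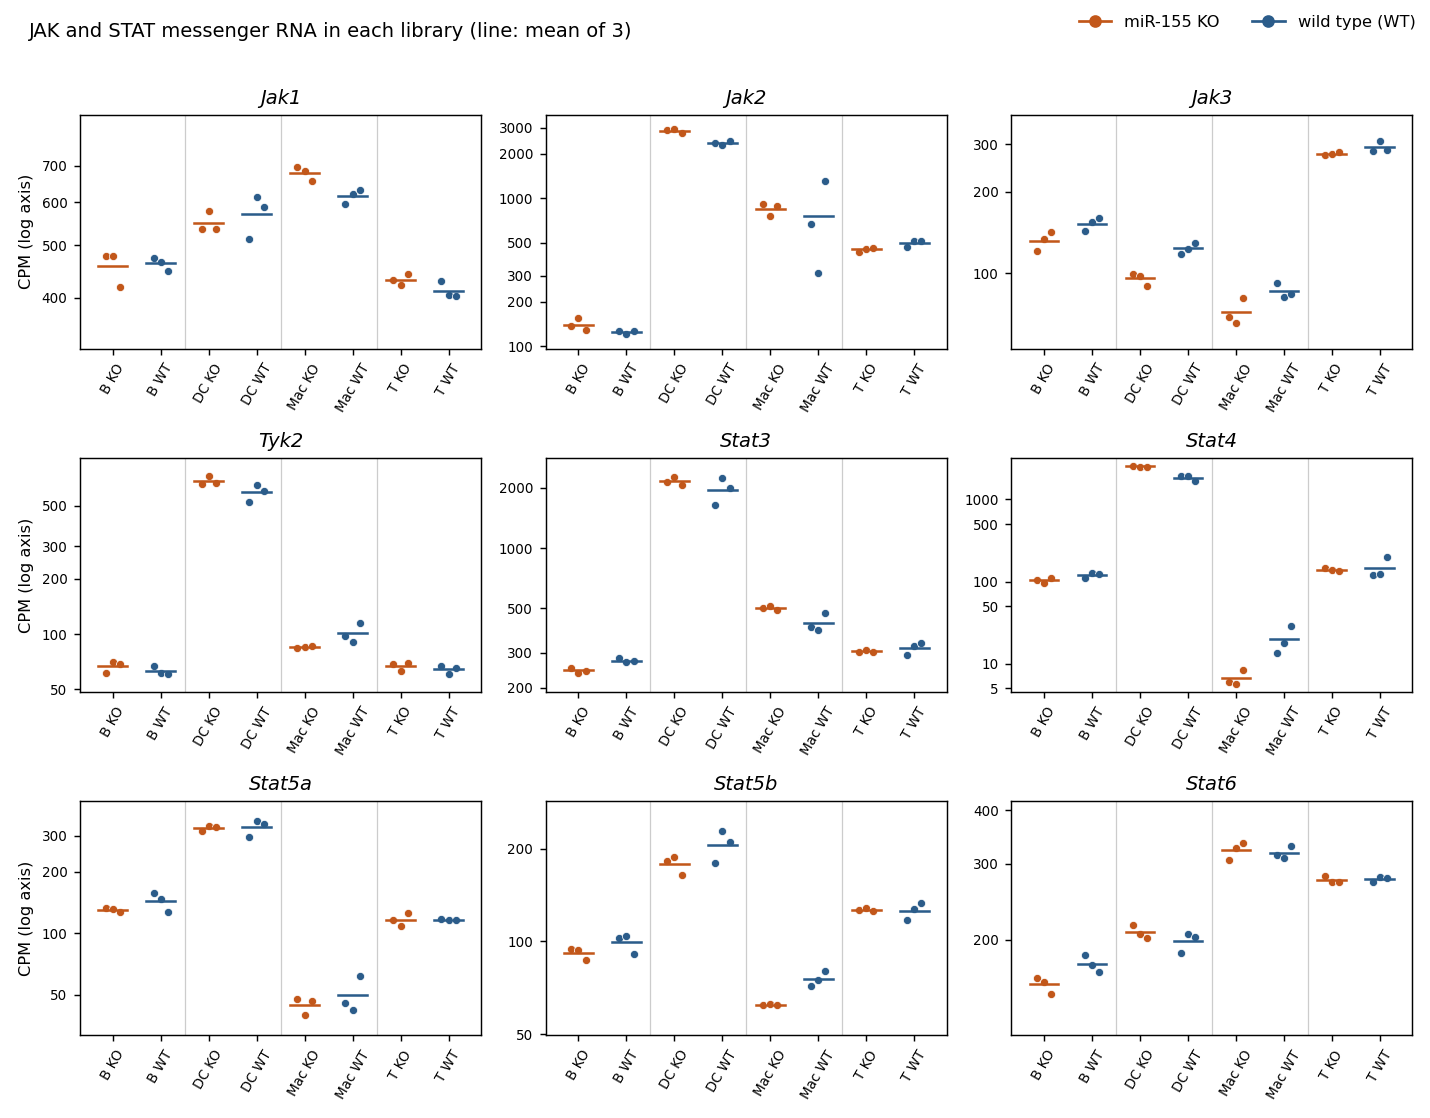
Messenger RNA of the 9 genes in each of the 24 libraries, in CPM on a log axis, with KO libraries in orange left of WT libraries in blue and a line at the mean of 3. Dendritic cells stand above the other cell types for Jak2, Tyk2, Stat3, Stat4, Stat5a and Stat5b, and Stat4 in macrophages lies between 5.65 and 29.0 CPM.

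Jak1, the kinase shared by the widest range of receptors, varied least. It averaged 679 ± 20.95 CPM in KO and 616 ± 17.9 CPM in WT macrophages, 550 ± 25.1 CPM in KO and 571 ± 52.9 CPM in WT dendritic cells, 458 ± 34.0 CPM in KO and 462 ± 13.6 CPM in WT B cells, and 431 ± 9.74 CPM in KO and 412 ± 14.8 CPM in WT CD4 T cells (SD, n = 3 each). Neighbours in this order were not separated by the test at both ends. The difference of WT dendritic cells minus WT macrophages was -0.11 on the log2 scale (SE 0.08, edgeR adjusted p = 0.20), and that of B cells minus CD4 T cells was 0.16 (SE 0.08, adjusted p = 0.089).

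Jak2, the kinase of GM-CSF and IL-12 receptors, had the widest range among the kinases. Its mean level was 2878 ± 98.5 CPM in KO and 2362 ± 81.9 CPM in WT dendritic cells, 851 ± 81.6 CPM in KO and 765 ± 501 CPM in WT macrophages, 452 ± 14.8 CPM in KO and 498 ± 26.2 CPM in WT CD4 T cells, and 140 ± 12.6 CPM in KO and 125 ± 3.64 CPM in WT B cells (SD, n = 3 each). The order was thus dendritic cells, macrophages, CD4 T cells and B cells. The step from WT macrophages to WT CD4 T cells was the least sure, a log2 difference of 0.62 (SE 0.27, adjusted p = 0.039), and the WT macrophage libraries themselves lay between 315 and 1306 CPM.

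Jak3, the partner of the common gamma chain in lymphocytes, had another order. It averaged 277 ± 3.12 CPM in KO and 293 ± 14.5 CPM in WT CD4 T cells, 132 ± 10.3 CPM in KO and 153 ± 8.06 CPM in WT B cells, 95.5 ± 4.94 CPM in KO and 123 ± 5.86 CPM in WT dendritic cells, and 71.6 ± 8.15 CPM in KO and 85.7 ± 5.40 CPM in WT macrophages. All 6 pairs of WT cell types differed, from 0.29 between B cells and dendritic cells (log2, SE 0.08, adjusted p = 0.0024) to -1.77 between macrophages and CD4 T cells (SE 0.08, adjusted p = 2.8e-15).

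Tyk2, the kinase of the IL-12 and type I interferon receptors, was highest in dendritic cells. It averaged 685 ± 38.3 CPM in KO and 591 ± 64.8 CPM in WT dendritic cells. In the other 3 cell types all 18 libraries lay between 60.5 and 115 CPM, with 85.3 ± 0.816 CPM in KO and 101 ± 12.5 CPM in WT macrophages, 67.0 ± 4.86 CPM in KO and 62.9 ± 3.32 CPM in WT B cells, and 67.2 ± 3.60 CPM in KO and 64.4 ± 3.43 CPM in WT CD4 T cells. WT B cells and WT CD4 T cells were not separated, with a log2 difference of -0.04 (SE 0.09, adjusted p = 0.73).

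Set per kilobase, the kinases made up each cell type in their own way. Jak1 took 57.0% of the kinase total in KO and 57.1% in WT B cells, whereas in dendritic cells Jak2 took 69.2% in KO and 65.6% in WT. Macrophages held Jak2 and Jak1 at 50.9% and 39.9% in KO and at 45.7% and 41.8% in WT. In CD4 T cells Jak3 had a share of 23.3% in KO and 23.8% in WT, against 2.36% in KO and 3.52% in WT dendritic cells.

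**Figure D2:**
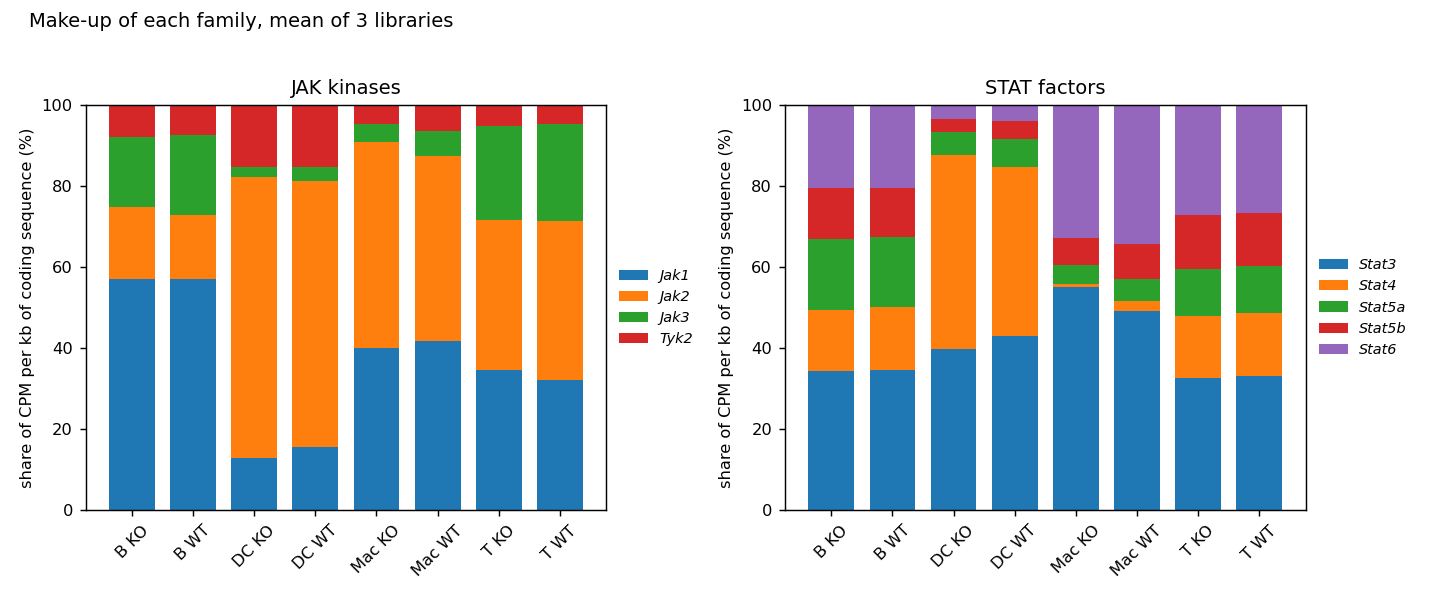
Share of each gene in the summed CPM per kilobase of the 4 Janus kinases (left) and of the 5 STAT genes described here (right), in percent, mean of 3 libraries, with KO left of WT in each cell type. Jak2 fills 69.2% of the kinase bar in KO and 65.6% in WT dendritic cells, and Stat4 fills 47.8% of the STAT bar in KO and 41.6% in WT dendritic cells.

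Stat3, the factor below IL-6 and IL-10, stood at 2163 ± 92.1 CPM in KO and 1955 ± 296 CPM in WT dendritic cells and at 501 ± 11.1 CPM in KO and 421 ± 44.2 CPM in WT macrophages. CD4 T cells had 304 ± 4.56 CPM in KO and 315 ± 22.5 CPM in WT, and B cells 244 ± 7.23 CPM in KO and 273 ± 5.74 CPM in WT. The WT difference of B cells minus CD4 T cells, -0.21 on the log2 scale (SE 0.10, adjusted p = 0.063), was not past the threshold.

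Stat4, the factor through which IL-12 drives IFN-gamma, had the widest range of the 9 genes. Dendritic cell libraries held 2559, 2500 and 2505 CPM in KO and 1899, 1921 and 1660 CPM in WT. CD4 T cells averaged 139 ± 5.77 CPM in KO and 147 ± 44.3 CPM in WT, and B cells 104 ± 6.81 CPM in KO and 119 ± 8.63 CPM in WT. Macrophages were at the bottom, with 6.71 ± 1.54 CPM in KO and 20.2 ± 7.96 CPM in WT. WT dendritic cells minus WT macrophages gave a log2 difference of 6.50 (SE 0.23, adjusted p = 8.2e-17), and the group means spanned 8.53 log2 units between KO dendritic cells and KO macrophages. WT B cells and WT CD4 T cells were again not separated (-0.31, SE 0.18, adjusted p = 0.16).

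The Stat5 pair, which carries IL-2 and GM-CSF signals, was likewise highest in dendritic cells and lowest in macrophages. Stat5a averaged 327 ± 9.62 CPM in KO and 330 ± 30.4 CPM in WT dendritic cells, 130 ± 2.47 CPM in KO and 144 ± 15.6 CPM in WT B cells, 116 ± 8.61 CPM in KO and 117 ± 0.772 CPM in WT CD4 T cells, and 44.7 ± 4.43 CPM in KO and 49.8 ± 10.7 CPM in WT macrophages. Stat5b averaged 178 ± 11.8 CPM in KO and 206 ± 24.4 CPM in WT dendritic cells, 127 ± 1.62 CPM in KO and 126 ± 7.91 CPM in WT CD4 T cells, 91.9 ± 4.02 CPM in KO and 99.2 ± 7.13 CPM in WT B cells, and 62.3 ± 0.216 CPM in KO and 75.8 ± 4.45 CPM in WT macrophages. All 12 WT pair tests of the pair were past the threshold. Per kilobase, Stat5a made up 64.0% of the summed level of both genes in KO and 60.8% in WT dendritic cells and 40.8% in KO and 38.5% in WT macrophages.

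Stat6, the factor of IL-4 and IL-13, varied little. It averaged 323 ± 14.6 CPM in KO and 318 ± 10.99 CPM in WT macrophages, 275 ± 5.08 CPM in KO and 277 ± 4.36 CPM in WT CD4 T cells, 208 ± 7.75 CPM in KO and 199 ± 11.2 CPM in WT dendritic cells, and 157 ± 6.73 CPM in KO and 175 ± 7.996 CPM in WT B cells. Its lowest level was thus in B cells, the only cells that had received IL-4, so IL-4 and cell type cannot be told apart here. Each neighbouring pair in this order differed in WT, with log2 differences of 0.21 for macrophages minus CD4 T cells (SE 0.06, adjusted p = 0.0053) and -0.19 for B cells minus dendritic cells (SE 0.07, adjusted p = 0.0092).

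Across the 8 group means, Tyk2 and Stat3 followed each other with a Pearson r of 0.99 on the log2 scale, Stat4 and Stat5a with 0.98, and Jak1 and Jak3 ran opposite at -0.90. These are descriptions over 8 points that share their 4 cell types and their libraries. By the same measure the genes most like each member were Stam2 and Copa for Jak1, Kctd10 and Btg1 for Jak2, Dennd2d for Jak3, Pla1a and Myo18a for Tyk2, Akap13 and Mkl1 for Stat3, Ccnt2 and Zcchc9 for Stat4, Net1 and Mapre1 for Stat5a, Mettl17 and Dock11 for Stat5b, and Akr1c13 and Lonrf3 for Stat6, all with r of at least 0.98.

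Dendritic cells were the only cell type in which KO and WT levels of a member were past the threshold in the main test. Stat4 and Jak2 rose and Jak3 fell in KO, 3 of 9 genes, where 21.6% of 10536 tested genes were called (12.2% up and 9.42% down). Read against that background, 3 of 9 is not a result particular to these genes. The median absolute log2 difference of the 9 genes was 0.206, against 0.211 over all tested genes. KO and WT libraries did not overlap for 4 of the 9, where 41.2% of all genes did not.

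Stat4 in dendritic cells was higher in every KO library (2500 to 2559 CPM) than in any WT library (1660 to 1921 CPM). The log2 fold change was 0.47 (SE 0.08, edgeR adjusted p = 0.0023). It stayed called without any single library (adjusted p at most 0.019) and was not called in the fit of all 24 libraries, which shares 1 estimate of spread over the cell types and called 19.3% of genes in dendritic cells (0.47, adjusted p = 0.072).

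Jak2 had 2918, 2951 and 2766 CPM in KO dendritic cells, against 2351, 2286 and 2449 CPM in WT. The groups did not overlap, and the log2 fold change was 0.29 (SE 0.07, edgeR adjusted p = 0.017). This call rested on all 3 KO libraries. Without KO replicate 1, 2 or 3 the adjusted p was 0.075, 0.099 or 0.061, and in the fit of all libraries it was 0.50.

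Jak3 had 99.0, 97.8 and 89.9 CPM in KO dendritic cells, against 118, 123 and 130 CPM in WT. Every KO library was below every WT library, and the log2 fold change was -0.37 (SE 0.07, edgeR adjusted p = 0.0060). Its share of the kinase total per kilobase was 2.36% in KO and 3.52% in WT.

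Tyk2 was also higher in all KO dendritic cell libraries, with 659, 729 and 667 CPM in KO and 521, 649 and 604 CPM in WT. The difference was not past the threshold (0.21, SE 0.09, adjusted p = 0.12) and was called without WT replicate 2 (0.28, adjusted p = 0.043), where 24.2% of all genes were. Stat5b overlapped, with 182, 187 and 165 CPM in KO and 179, 228 and 210 CPM in WT (-0.21, SE 0.10, adjusted p = 0.15). It was called without WT replicate 1 (-0.30, adjusted p = 0.0030), where 27.0% of all genes were. WT replicate 1 was the lowest WT library for Jak1, Jak3, Tyk2, Stat3, Stat5a, Stat5b and Stat6.

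Jak1, Stat3, Stat5a and Stat6 were not called in dendritic cells. Their log2 differences were -0.05, 0.15, -0.01 and 0.07, and the 95% intervals reached at most 0.36 (Stat3). Jak1 and Stat5a turned to the other sign when WT replicate 2 was left out, at 0.00028 and 0.038, and Stat5a also without KO replicate 1 (0.016) or WT replicate 3 (0.012). Cell markers differed with genotype in these libraries. The conventional dendritic cell sum was higher in KO (14538 to 15304 CPM, against 11120 to 11909 CPM in WT), with 5 of 6 markers over 1 CPM in KO and 6 of 6 in WT. Most of that difference was in 1 gene, Fscn1 (8395 CPM in KO and 5299 CPM in WT), while Flt3 (1573 CPM in KO and 1486 CPM in WT) and Zbtb46 (174 CPM in KO and 169 CPM in WT) were close and Itgax and Xcr1 were lower in KO. The macrophage sum was lower (75.1 to 89.9 CPM in KO and 107 to 304 CPM in WT, 7 of 7 over 1 CPM in both), and the B cell sum was higher (12.1 to 22.5 CPM in KO and 5.91 to 10.8 CPM in WT). The plasmacytoid sum was higher as well (217 to 245 CPM in KO and 175 to 204 CPM in WT). Of it, Bst2 (133 CPM in KO and 110 CPM in WT) and Tcf4 (74.5 CPM in KO and 57.3 CPM in WT) were higher in KO, and Siglech was close (21.3 CPM in KO and 20.5 CPM in WT). No marker of these lists was at 0. Their part in the Stat4, Jak2 and Jak3 differences was not tested.

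**Figure D3:**
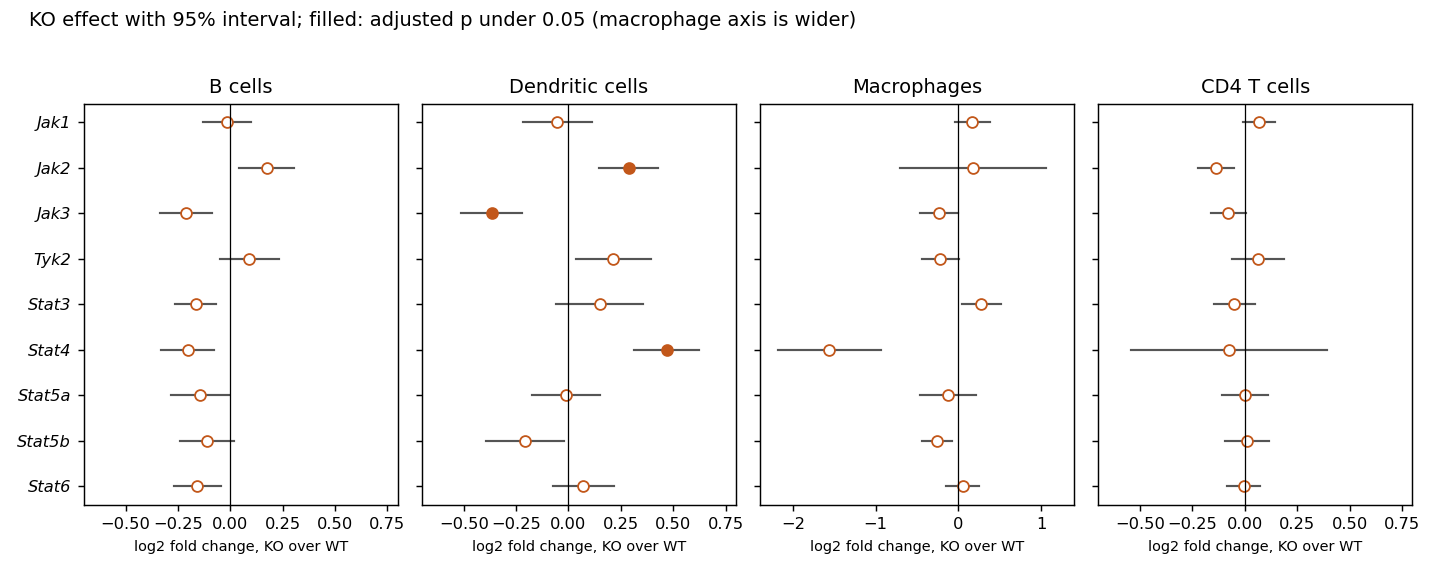
Log2 fold change of KO over WT for the 9 genes in each cell type, filled where the adjusted p was under 0.05. Bars are 95% intervals by the normal quantile, from the edgeR fit of 3 KO and 3 WT libraries. Stat4 (0.47), Jak2 (0.29) and Jak3 (-0.37) in dendritic cells are filled, and Stat4 in macrophages has the largest difference of all (-1.56) with an open point.

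In macrophages no member was called by edgeR (0 of 9, where 0.885% of 10730 genes were called). An unadjusted p under 0.05 was found for 2 of the 9, and the edgeR p of 0.055 of Stat3 ranked 2027 of the 10730 genes. DESeq2 called 1 and limma voom 0. KO and WT libraries did not overlap for 6 of the 9 genes, against 24.6% of all tested genes.

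Stat4 in macrophages had 6.00, 5.65 and 8.48 CPM in KO, against 13.5, 18.1 and 29.0 CPM in WT. All KO libraries were lower, on 51 to 78 counts in KO and 131 to 284 counts in WT. The log2 fold change was -1.56 (SE 0.32), which edgeR left just above the threshold (adjusted p = 0.078). Same-numbered macrophage libraries correlated most, but for KO replicate 1 only narrowly (0.125 with WT replicate 1 and 0.112 with WT replicate 2). The sample titles name no pairing. With the replicate block the change was called (-1.53, adjusted p = 0.015). It was called as well by DESeq2 (-1.57, adjusted p = 0.00031), in the fit of all 24 libraries (-1.58, adjusted p = 0.00015) and without WT replicate 3, the highest library (-1.20, adjusted p = 0.0088). Of all genes, 2.47% were called with the block, 5.46% by DESeq2, 14.3% in the fit of all libraries and 25.4% without WT replicate 3. NK cell markers summed to 0.111 to 1.09 CPM in KO and 0 to 0.310 CPM in WT macrophages, with Ncr1 and Nkg7 at 0 in WT, and CD4 T cell markers to 0.982 to 1.74 CPM in KO and 1.12 to 3.00 CPM in WT, with Cd3d at 0 in KO. The conventional dendritic cell sum (347 to 431 CPM in KO, 4 of 6 over 1 CPM, and 227 to 315 CPM in WT, 3 of 6) was nearly all Itgax, with Xcr1 at 0 in both. Of the others, Ccr7 (1.46 CPM in KO and 3.89 CPM in WT), Fscn1 (3.39 CPM in KO and 4.12 CPM in WT) and Flt3 (0.292 CPM in KO and 0.401 CPM in WT) were lower in KO on average, and Zbtb46 was higher (1.86 CPM in KO and 0.975 CPM in WT). The plasmacytoid sum (251 to 276 CPM in KO and 290 to 456 CPM in WT, 2 of 3 over 1 CPM in both) was mostly Bst2 (222 CPM in KO and 315 CPM in WT), which all 4 cell types held, while Siglech was at 0 in KO and 0.0344 CPM in WT. Their part in the Stat4 difference was not tested.

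Stat3 was higher in all KO macrophage libraries, with 500, 512 and 490 CPM in KO and 404, 388 and 471 CPM in WT. The groups did not overlap, but the log2 fold change of 0.28 (SE 0.12) had an adjusted p of 0.29. It was called without WT replicate 3 (0.37, adjusted p = 0.022), where 25.4% of all genes were. Stat5b had 62.1, 62.5 and 62.3 CPM in KO and 71.6, 75.2 and 80.5 CPM in WT (-0.26, SE 0.09, adjusted p = 0.22). Stat5b and Jak3 were called only in the fit of all 24 libraries (adjusted p of 0.031 and 0.046), where 14.3% of genes were called in macrophages.

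Jak2 could not be compared with any precision in macrophages. KO libraries had 910, 758 and 886 CPM and WT libraries 674, 315 and 1306 CPM, so the 95% interval of the log2 fold change ran from -0.71 to 1.06. The sign turned without WT replicate 2 (-0.20). Jak1 (0.17), Tyk2 (-0.22), Stat5a (-0.13) and Stat6 (0.05) were not called, and Stat5a changed sign without WT replicate 3 (0.065).

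In B cells edgeR called 0 of the 9 genes, against 3.20% of 10151 tested genes, and DESeq2 and limma voom also called 0. An unadjusted edgeR p under 0.05 was found for 5 of the 9, and the p of 0.057 of Stat5a ranked 1774 of the 10151 genes. Of the 9 differences 7 were below 0, and the median log2 difference was -0.14 against -0.0024 over all genes. Without overlap of KO and WT libraries were 4 of the 9 genes, where 21.7% of all tested genes were.

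Jak3 had 121, 134 and 141 CPM in KO B cells, against 144, 154.7 and 159 CPM in WT. The log2 fold change was -0.21 (SE 0.06, edgeR adjusted p = 0.089), and it was called with no filter on low counts (adjusted p = 0.034). Stat3 had 252, 238 and 242 CPM in KO and 280, 269 and 271 CPM in WT (-0.16, SE 0.05, adjusted p = 0.085), and Stat6 had 163, 159 and 150 CPM in KO and 184, 174 and 168 CPM in WT (-0.16, SE 0.06, adjusted p = 0.17). In these 3 genes every KO library was the lower one.

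Jak2 was higher in all KO B cell libraries, at 138, 154 and 129 CPM, against 126, 120 and 127 CPM in WT (0.17, SE 0.07, adjusted p = 0.20). Stat4 overlapped by 1 library, with 105, 96.7 and 110.2 CPM in KO and 109.7, 126 and 122 CPM in WT (-0.20, SE 0.06, adjusted p = 0.11). Without KO replicate 3, Jak2 (0.23, adjusted p = 0.034), Jak3 (-0.26, adjusted p = 0.015) and Stat4 (-0.24, adjusted p = 0.032) were called, where 4.30% of all genes were. Jak1 (-0.02), Tyk2 (0.09), Stat5a (-0.14) and Stat5b (-0.11) were not called, and Jak1 turned to 0.048 without KO replicate 3 and to 0.0077 without WT replicate 1.

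In CD4 T cells edgeR called 0 of the 9 genes, against 2.15% of 10396 tested genes, with 0 calls by DESeq2 or limma voom. An unadjusted p under 0.05 was found for 1 of the 9, and the edgeR p of 0.058 of Irf9, outside the 9, ranked 2059 of the 10396 genes. The differences were small. The median absolute log2 difference was 0.063, against 0.095 over all genes, and KO and WT did not overlap for 2 of the 9 genes, where 22.6% of genes did not.

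Jak2 had 436, 455 and 465 CPM in KO CD4 T cells, against 468, 515 and 512 CPM in WT. All KO libraries were lower (-0.14, SE 0.04, edgeR adjusted p = 0.11), and the gene was called without WT replicate 1 (-0.18, adjusted p = 0.019), where 5.69% of all genes were. Its sign was opposite to that in dendritic cells, and the KO effect on Jak2 was not shown to differ between cell types (adjusted p = 0.83 over the 4). Without macrophage WT replicate 3, which had the most Jak2, that test was past the threshold (adjusted p = 0.041). The share of all genes that it called without this library was not taken. For KO against WT in macrophages that share rose from 0.885% to 25.4% without this library.

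Stat4 had 146, 137 and 135 CPM in KO CD4 T cells, against 119, 124 and 198 CPM in WT. The KO libraries lay inside the WT range, and the log2 difference of -0.08 (SE 0.24, adjusted p = 0.92) hung on 1 library. Without WT replicate 3 it was 0.20 (adjusted p = 0.048), where 3.89% of all genes were called. That library also had the highest Il12rb2, a subunit of the IL-12 receptor, with 93.3, 117 and 69.4 CPM in KO and 48.1, 82.6 and 186 CPM in WT. NK cell markers summed to 8.10 to 13.5 CPM in KO and 7.16 to 30.4 CPM in WT, with Ncr1 and Klrb1c at 0. The part of these in the Stat4 difference was not tested.

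The other CD4 T cell differences were small as well. Stat6 (-0.01, 95% interval -0.08 to 0.07), Stat5a (0.00013, -0.11 to 0.11), Stat5b (0.01, -0.09 to 0.11) and Stat3 (-0.05, -0.15 to 0.05) had intervals inside 0.15 on the log2 scale. These intervals use the normal quantile, and the F test would allow somewhat wider ones. Jak1 (0.07), Jak3 (-0.08) and Tyk2 (0.06) were not called either. Signs turned for Stat5a without KO replicate 1 or 3 or WT replicate 2 or 3, for Stat5b without WT replicate 1, and for Stat6 without KO replicate 2 or 3 or WT replicate 2.

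Jak3 was the 1 member with the same order in every cell type. Its 3 KO libraries were below its 3 WT libraries in dendritic cells (-0.37), macrophages (-0.23), B cells (-0.21) and CD4 T cells (-0.08), and the CD4 T cell libraries came closest, with 274, 276 and 280.4 CPM in KO and 283, 309 and 286 CPM in WT. Of 8895 genes tested in all cell types, 20 had KO below WT without overlap in all 4 (0.225%) and 74 had no overlap in 1 direction in all 4 (0.832%). Only the dendritic cell difference was past the threshold. Il2rg, the common gamma chain that Jak3 binds, had log2 differences of -0.23, -0.36, -0.10 and -0.09 in the same order, and it too was called in dendritic cells only (115 ± 2.35 CPM in KO and 135 ± 4.36 CPM in WT, adjusted p = 0.035).

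Whether the KO effect differed between the cell types was tested in the fit of all 24 libraries. That fit shares 1 estimate of spread over the cell types, and WT macrophage libraries varied most (chi-square per gene of 39.2 to 160.7). For KO against WT in macrophages it called 14.3% of genes, against 0.885% in the fit of macrophages alone. There Stat4 was not called (edgeR adjusted p = 0.078). The p-values of comparisons with macrophages thus rest in part on the spread of the other cell types. Stat4 was the 1 member past the threshold over the 4 cell types (adjusted p = 0.00089), where 12.6% of 12249 genes were. Its KO effect in dendritic cells exceeded that in macrophages by 2.05 on the log2 scale (SE 0.30, adjusted p = 0.00016), and that in B cells exceeded that in macrophages by 1.38 (SE 0.30, adjusted p = 0.017). The effect in macrophages minus that in CD4 T cells was -1.50 (SE 0.30, adjusted p = 0.0069). Of all genes, 9.27% were called for dendritic cells against macrophages, 2.67% for B cells against macrophages and 3.63% for macrophages against CD4 T cells. The B cell comparison was lost without macrophage KO replicate 1 or 2 (adjusted p of 0.059 and 0.058), and the other comparisons of Stat4 kept their calls without any 1 library.

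Tyk2 differed in 1 pair of cell types. Its effect in dendritic cells exceeded that in macrophages by 0.45 (SE 0.13, adjusted p = 0.026), while the test over 4 cell types gave an adjusted p of 0.082. The pair call was lost without dendritic cell KO replicate 2 (0.073), dendritic cell WT replicate 1 (0.072) or macrophage KO replicate 1, 2 or 3 (0.063, 0.063 and 0.052). These 4 pair calls were the only ones among 54 pair tests, of 9 genes in 6 pairs of cell types. The other 3 pairs had no member called, with 5.63% of genes called for B cells against dendritic cells, 6.1% for dendritic cells against CD4 T cells and 0.0571% for B cells against CD4 T cells. The count of members over 4 cell types was 3 by DESeq2 (Stat3, Stat4 and Stat6), 3 without dendritic cell WT replicate 2 (Tyk2, Stat3 and Stat4), 2 without macrophage WT replicate 2 (Tyk2 and Stat4) and 3 without macrophage WT replicate 3 (Jak2, Stat3 and Stat4). The share of all genes called by this test was taken only in the main setting (12.6%). These counts therefore have no background to be read against.

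Stat2 and Irf9, which act together below type I interferons, passed the threshold in 0 of the 4 cell types. In dendritic cells Stat2 had 270 ± 14.7 CPM in KO and 268 ± 39.3 CPM in WT (0.01, edgeR adjusted p = 0.95), and Irf9 had 157 ± 5.49 CPM in KO and 146 ± 7.96 CPM in WT (0.11, adjusted p = 0.32).

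Among the other genes of the pathway, dendritic cells had the most calls. Of 80 tested pathway genes 17 rose and 11 fell in KO dendritic cells, against the background of 21.6% of all tested genes called, and their median log2 difference was -0.0032, against -0.011 over all genes. The counts were 3 up and 0 down of 72 in CD4 T cells (2.15% of all tested genes called), 5 up and 1 down of 71 in B cells (3.2% of all) and 2 up and 1 down of 83 in macrophages (0.885% of all).

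Among receptors in dendritic cells, Il7r, the IL-7 receptor that pairs with the common gamma chain and holds the seed match shown above, rose to 551 ± 25.7 CPM in KO, against 308 ± 27.7 CPM in WT (0.84, SE 0.08, adjusted p = 0.00013). Il15ra (0.35) and Il13ra1 (0.54) also rose, and Il9r (-0.72) and Il2rg fell, 3 up and 2 down of 10 common gamma chain and related receptors. Of all tested genes 21.6% were called in dendritic cells. Il6ra (1.14) and its signalling partner Il6st (0.44), the receptor that acts through Jak1 and Stat3, rose. These were 2 of 8 tested in their list (25%), near the share of all genes. The IFN-gamma receptor split, with Ifngr1 lower (-0.45) and Ifngr2 higher (0.31). Il6ra rose in B cells too (0.87), where Il2rb fell on a mean under 5 CPM (-1.59).

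Among inhibitors in dendritic cells 6 rose and 3 fell of 21, and 0 of 21 were called in each of the other cell types by edgeR. Sh2b3, an adaptor that restrains Jak2, had the largest rise, with 187 ± 21.2 CPM in KO and 87.6 ± 20.7 CPM in WT (1.10, SE 0.15, adjusted p = 0.0011). The ubiquitin ligase Cblb (0.59), the phosphatase Ptpn2 (0.57), and Pias1 (0.52) and Pias3 (0.42), which bind STAT factors, rose as well, as did Usp18 (0.35). The phosphatases Ptpn1 (-0.39) and Ptprc (-0.39) fell. Cish, a STAT5-induced inhibitor with the promoter matches shown above, fell to 139 ± 10.7 CPM in KO, against 179 ± 7.20 CPM in WT (-0.37, SE 0.08, adjusted p = 0.0086). Socs1, which holds an 8-letter seed match 21 bases after its stop codon, was not called in any cell type. Its level was 151 ± 3.19 CPM in KO and 141 ± 5.68 CPM in WT dendritic cells (0.10, SE 0.07, adjusted p = 0.32), and its log2 differences elsewhere ran from -0.10 to 0.04. Socs3 was not called either, and its highest level was in macrophages (261 ± 18.9 CPM in KO and 254 ± 81.6 CPM in WT).

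STAT targets moved in both directions in dendritic cells, where 21.6% of all tested genes were called. Of the STAT3 list 4 of 11 tested genes were called. The survival gene Mcl1 (0.40), the NF-kappaB cofactor Bcl3 (0.40) and the kinase gene Pim1 (0.37) rose, and the transcription factor Batf (-1.37) fell. Of the STAT5 list Pim1 and the cytokine Osm (0.30) rose, and Bcl2l1 (-0.91), a survival gene, and Cish fell, again 4 of 11. Of the STAT6 list the immune checkpoint ligand Pdcd1lg2 rose (0.80) and the chemokines Ccl22 (-0.77) and Ccl17 (-1.17) fell, 3 of 8. Of the STAT4 list, 1 of 8 was called (12.5%), under the share of all genes. This was Il18r1, a receptor gene with a 7-letter seed match, with 2.66 ± 0.972 CPM in KO and 5.84 ± 2.02 CPM in WT (-1.12). Ifng, the cytokine that Stat4 is known for, was not called at 5.34 ± 1.32 CPM in KO and 6.28 ± 1.90 CPM in WT dendritic cells.

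Ccl22, which fell in KO dendritic cells, rose in B cells, to 59.7 ± 4.39 CPM in KO, against 25.7 ± 3.58 CPM in WT (1.22, SE 0.09, adjusted p = 1.2e-06), and in CD4 T cells (0.89, adjusted p = 0.038). Hif1a rose in B cells (0.35) and CD4 T cells (0.26), Myc in B cells (0.24) and the kinase Pim2 in CD4 T cells (0.36). In macrophages the cytokine receptors Osmr (1.96) and Lepr (2.65) rose, with means of 10.2 ± 2.55 and 9.34 ± 2.96 CPM in KO and 2.67 ± 0.658 and 1.51 ± 0.915 CPM in WT. Ccl17 fell there on a mean under 5 CPM (-3.12). The summed stromal and mesothelial markers overlapped slightly but stood higher there (215 to 531 CPM in KO and 72.6 to 229 CPM in WT, 2 of 4 over 1 CPM in both, none at 0). The sum was nearly all Col1a1 (201 CPM in KO and 91.8 CPM in WT) and Col3a1 (138 CPM in KO and 52.2 CPM in WT). Near 0 were Msln (0.182 CPM in KO and 0.0996 CPM in WT) and Upk3b (0.146 CPM in KO and 0.298 CPM in WT). The part of these markers in Osmr and Lepr was not tested. The macrophage count of 3 was 0 without any KO library or WT replicate 1, 5 without WT replicate 2 and 26 without WT replicate 3. With the replicate block it was 7. The share of all genes called there moved alike. It was at most 0.0092% without a KO library or WT replicate 1, 1.37% without WT replicate 2, 25.4% without WT replicate 3 and 2.47% with the block. In CD4 T cells the count of 3 was 0 without KO replicate 1, 1 without KO replicate 2 or 3 or WT replicate 2, 8 without WT replicate 1 and 9 without WT replicate 3. Of all genes, 0.305 to 0.649% were called in the settings with 0 or 1, 5.69% without WT replicate 1 and 3.89% without WT replicate 3. In B cells the count of 6 was 3 without KO replicate 2 (1.53% of all genes).

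**Figure D4:**
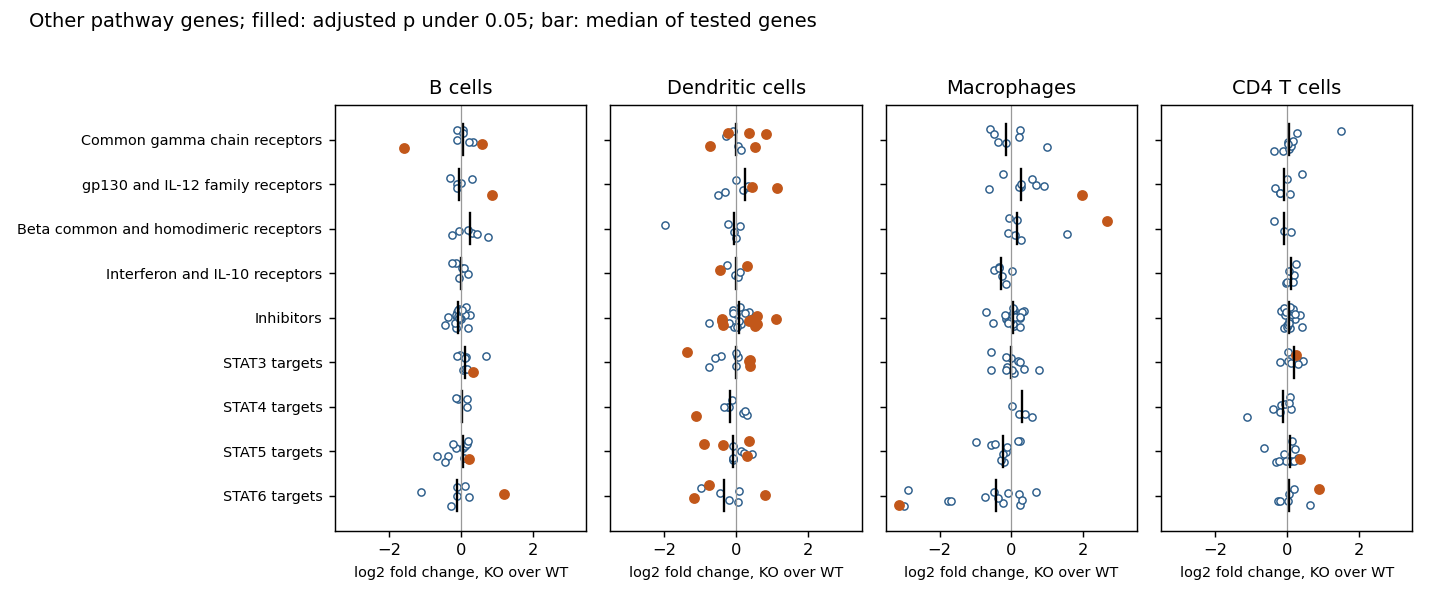
Log2 fold change of KO over WT for the tested pathway genes by list in each cell type, filled where the edgeR adjusted p was under 0.05, with a bar at the median of the tested genes of a list. In dendritic cells 28 genes are filled, against 3 in CD4 T cells, 6 in B cells and 3 in macrophages, and a gene of several lists is drawn in each of them.

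Seed matches can be set beside these values. In dendritic cells 7 rose and 2 fell of the 14 tested pathway genes with a match of 7 or 8 letters (median log2 difference 0.33), and 10 rose and 9 fell of the 66 without one (median -0.07), where 12.2% of all tested genes rose and 9.42% fell. The other cell types had few calls among genes with such a match, with 2 up and 0 down of 12 in B cells (median 0.16, against -0.03 without one), 1 up and 0 down of 15 in macrophages (0.04, against -0.09) and 1 up and 0 down of 14 in CD4 T cells (0.07, against 0.05). The 9 kinases and STAT factors, all without a match, had a median of 0.07 in dendritic cells, and the median of all tested genes there was -0.01.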

How the data were processed

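The authors deposited whole-number read counts per gene symbol, not normalized, for 24 libraries. Per the labels' protocols these were TruSeq libraries read as paired 50-nt ends, and per the submitters' processing notes cutadapt, STAR and mm9 were used. How reads were counted, and with which strand setting, is not given in the sources used here. Left out were lines naming no gene, of which reads outside features made 51.4 to 61.1% of all counts. Library pairs within a group differed by more than counting noise (chi-square per gene of 2.08 or more). The WT macrophage pairs stood out, at 39.2, 65.8 and 160.7, against at most 15.9 in any other group.

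Each cell type's 3 KO and 3 WT libraries were compared with edgeR 4.0.16 (R 4.3.3, TMM, filterByExpr, robust quasi-likelihood F test, Benjamini-Hochberg adjustment over all tested genes, threshold 0.05). Log2 differences are KO minus WT, with SE as the absolute difference over the square root of F. The 95% intervals use the normal quantile times this SE and are narrower than the F test implies. Jak3 in macrophages thus has an interval of -0.46 to -0.0018, which leaves out 0, at an unadjusted edgeR p of 0.088. Differences between cell types came from 1 fit of 24 libraries with 8 group means. Coding lengths are those of GENCODE M21 (GRCm38). Alternatives were RLE and upper quartile scaling, no filter, 1 CPM in 3 libraries, DESeq2 1.42.0, limma 3.58.1 voom, a replicate block, the 24-library fit and leaving out each library, with the sum of Stat5a and Stat5b added after seeing the data. The scripts were tested on simulated data. By the rule used, replicate numbers paired the libraries in macrophages, where same-numbered KO and WT deviations correlated at 0.12, 0.30 and 0.39. The margin was small, since KO replicate 1 correlated with WT replicate 2 at 0.11.

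The 9 genes, 9 pathway lists and marker lists were chosen with earlier results of these data known. Of the pathway, called genes were named where their mean reached 5 CPM, up to 4 per list and cell type by absolute log2 difference. In the genes that this rule gave, KO and WT did not overlap. Others named were chosen after their values were seen. The most alike genes were the 2 with the highest Pearson r over 8 group means of log2 CPM, among genes with a mean of at least 10 CPM. Some genes that these rules name are not reported here.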

Additional observations from a re-analysis of the deposited data

Results flagged for a closer look

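The KO effect on Stat4 differed between cell types. Over the 4 cell types the edgeR adjusted p was 0.00089. This came from the fit of all 24 libraries, where comparisons with macrophages rest in part on the spread of the other cell types. In the fit of macrophages alone Stat4 was not called (edgeR adjusted p = 0.078). The effect in dendritic cells minus that in macrophages was 2.05 on the log2 scale (adjusted p = 0.00016), that in B cells minus macrophages was 1.38 (adjusted p = 0.017) and that in macrophages minus CD4 T cells was -1.50 (adjusted p = 0.0069). Stat4 was higher in all 3 KO libraries of dendritic cells and lower in all 3 KO libraries of macrophages. The Tyk2 effect in dendritic cells minus that in macrophages was 0.45 (adjusted p = 0.026), with all KO libraries above WT in dendritic cells and below WT in macrophages. Single libraries were left out in turn, with the results given in the text, and no test for outlying libraries was run.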

How the results depend on the processing

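Called members numbered 3 in dendritic cells and 0 in each of the other cell types. B cells had 1 (Jak3) with no filter on low counts and 6 with the replicate block (Jak2 up, Jak3, Stat3, Stat4, Stat5a and Stat6 down), although replicate numbers did not pair the B cell libraries by the rule used (correlations of 0.18, 0.03 and 0.21, and KO replicate 2 correlated more with WT replicate 1, at 0.05). Dendritic cells had 1 (Jak3) in the fit of all 24 libraries. Macrophages had 1 (Stat4) by DESeq2 and with the replicate block, and 3 in the fit of all libraries. The block changed no other member's call. Correlations of same-numbered libraries were -0.02, 0.14 and -0.09 in dendritic cells and 0.04, 0.06 and -0.24 in CD4 T cells. Pathway calls in B cells (6) were 19 with the block and 3 in the fit of all libraries. Those in macrophages (3) were 12 by DESeq2, 7 with the block and 23 in the fit of all libraries, and those in CD4 T cells (3) were 7 with no filter and 0 in the fit of all libraries. Of all genes in B cells, 3.69% were called with no filter, 12.4% with the block and 0.661% in the fit of all libraries. In macrophages the shares were 5.46% by DESeq2, 2.47% with the block and 14.3% in the fit of all libraries. That fit called 19.3% in dendritic cells and 0.514% in CD4 T cells, where 3.47% were called with no filter. Members whose KO effect differed between cell types (1) were 3 by DESeq2, where the share of all genes was not taken. The Stat5a difference in CD4 T cells (0.00013) was -0.00033 with RLE, -0.00053 with upper quartile scaling, -0.0060 with no filter, -0.0012 with the 1 CPM filter, -0.00033 by DESeq2, -0.0034 by limma voom and -0.0018 with the replicate block. The cause of these changes was not tested.

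Leaving out 1 library at a time gave 0 to 1 called members in CD4 T cells, 2 to 4 in dendritic cells, 0 to 3 in B cells and 0 to 2 in macrophages, with 0 to 9, 20 to 37, 3 to 8 and 0 to 26 pathway genes in the same order, 1 to 3 members whose KO effect differed, 9 whose WT level differed, and 47 to 50 pair tests of WT level. For the tests between cell types the share of all genes was not taken in these settings. Differences that changed sign ran from -0.053 to 0.048 for Jak1 in B cells, -0.13 to 0.00028 for Jak1 and -0.093 to 0.038 for Stat5a in dendritic cells, -0.20 to 0.82 for Jak2 and -0.24 to 0.065 for Stat5a in macrophages, and in CD4 T cells -0.21 to 0.20 for Stat4, -0.054 to 0.055 for Stat5a, -0.039 to 0.052 for Stat5b and -0.029 to 0.0038 for Stat6. Without TMM scaling the median of all genes in dendritic cells shifted by -0.12 on the log2 scale. Stat4 in macrophages rested on 51 to 284 counts per library.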

Other observations

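WT macrophage libraries differed among themselves over all genes (chi-square per gene of 39.2 to 160.7), and also in several genes of the pathway. Jak2 had 674, 315 and 1306 CPM in WT replicates 1, 2 and 3, and Socs1, which inhibits the kinases, had 64.2, 24.7 and 140 CPM in the same libraries. The KO libraries were closer together, at 910, 758 and 886 CPM for Jak2 and 74.7, 64.6 and 71.1 CPM for Socs1.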
